A study of Homo sapiens with 12 samples.

Results

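The insulin-like growth factor (IGF) axis was followed through 10 genes taken by name from the expression tables deposited for H1299 and H1703 cells, out of 58302 genes listed in each table. They are the binding-protein genes IGFBP2, IGFBP3, IGFBP4, IGFBP5, IGFBP6 and IGFBP7, the ligand gene IGF2, the non-coding RNA gene H19, and the receptor genes IGF1R and IGF2R, and all 10 had a row in both tables. The study sequenced polyadenylated RNA from both lines after 24 h with SAHA (vorinostat, an inhibitor of zinc-dependent histone deacetylases) or with 0.1% DMSO as its vehicle. Each line has 3 libraries from vehicle-treated and 3 from SAHA-treated cells, so the 12 libraries form 4 groups. The protocol lists concentrations of 0, 2.5, 10 and 40 µM, but no label ties a sequenced library to one of them. Both are established human lines of non-small-cell lung cancer, labelled as epithelial cells of the lung. The labels do not state that replicates were separate cultures, so the p-values below measure the spread between these libraries, which may be technical.

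IGF1 and IGF2 are secreted growth factors that act mainly through the receptor tyrosine kinase IGF1R, whereas IGF2R takes up IGF2 for lysosomal degradation and carries newly made lysosomal enzymes. Secreted binding proteins hold IGFs in the extracellular space, can block or prolong their action, and are cut by proteases that release the ligand. IGF2 and H19 lie next to each other in an imprinted domain, in which the paternal copy of IGF2 and the maternal copy of H19 are normally the active ones. IGF1R has been pursued as a drug target in lung cancer.

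Column totals ran from 14416126 to 19408852 counts per library. The share of mitochondrially encoded genes was 1.96% to 2.22% in the DMSO libraries of H1299 and 4.0% to 4.23% in its SAHA libraries, and in H1703 it was 5.44% to 6.27% and 8.77% to 10.9%. Of 8 epithelial marker genes, 3 had at least 10 counts in every library of H1299 with DMSO and 7 in H1703 with DMSO. The junction gene CDH1 and the epithelial transcription factor gene ELF3 were at 0 counts in H1299 with DMSO, where the keratin genes KRT8 and KRT18 were at 210 and 383 CPM (counts as a rate of the library total, scaled by TMM over all libraries, with the usual unit of edgeR's cpm function). Of 11 lung lineage genes, 6 were at 0 counts in H1299 with DMSO and 3 in H1703 with DMSO. Summed over 8 mesenchymal and fibroblast genes, the level was 2886 to 3554 CPM in H1299 with DMSO and 1831 to 2241 CPM with SAHA. In H1703 it was 1521 to 1584 and 2319 to 2456 CPM. Most of it came from VIM and, in H1703, FN1. Of the 8 genes, 3 had at least 10 counts in every library of H1299 with DMSO and 4 in H1703 with DMSO. COL1A2, COL3A1, DCN and PDGFRB were each at 0.414 CPM or less in both DMSO groups, and LUM was at 0 in H1299 with DMSO. The summed level of the epithelial genes was 590.02 to 613 and 1356 to 1585 CPM in H1299, below the mesenchymal sum, and 4221 to 4679.7 and 3295 to 3824 CPM in H1703, above it. Markers of the other cell types were lower, and some of their sums also moved with treatment. Summed over 5 endothelial genes the level was 1.66 to 1.98 CPM in H1299 with DMSO and 15.8 to 21.5 CPM with SAHA, and 0.894 to 1.34 and 7.73 to 9.99 CPM in H1703. The endothelial cadherin gene CDH5 was at 0 counts in H1299 with DMSO, and CLDN5 was at 0 in H1703 with SAHA. The summed level of 4 hepatocyte genes was 7.27 to 8.95 and 13.9 to 20.0 CPM in H1299, and 2.11 to 3.03 and 17.1 to 19.2 CPM in H1703, nearly all of it from SERPINA1, with TTR at 0 in H1299 and APOA1 at 0 in H1703 with SAHA. In H1703 the summed level of 6 myeloid genes was 29.9 to 49.6 CPM with DMSO and 86.6 to 96.9 with SAHA, with AIF1 at 0 in the DMSO libraries. In H1299 the myeloid sums overlapped, at 25.0 to 45.6 CPM with DMSO and 24.2 to 28.2 with SAHA. None of 7 lymphoid genes reached 10 counts in every library of any group. The part of these shifts in the results below was not tested.

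The first question was how SAHA moves the axis within each line. In both lines IGFBP2, IGFBP3, IGFBP5 and IGF2R were higher with SAHA, and IGFBP4 and IGFBP6 were lower. IGF1R and H19 were higher with SAHA in H1299 and lower in H1703. IGF2 passed the test in neither line. In H1299, 9 of the 10 genes could be tested, and 6 were called higher and 2 lower at an adjusted p below 0.05 (edgeR quasi-likelihood test, Benjamini-Hochberg over all genes), where 63.8% of all 17277 genes tested were called, 33.3% higher and 30.4% lower. For these 8 genes the libraries did not overlap between treatments, a state that 38.1% of all genes showed on the higher side and 31.3% on the lower side. In H1703 all 10 were tested, and 4 were called higher and 4 lower, where 67.4% of 17273 genes were called, 34.7% higher and 32.6% lower. There the libraries did not overlap for 4 genes on the higher side and 5 on the lower, IGFBP7 included, against 36.3% and 35.9% of all genes. With so many genes moving, the share of called members is not a result about the axis. The median log2 fold change was 1.26 over the members tested in H1299 and -0.32 in H1703, against 0.016 and 0.018 over all genes tested. Of the 9 members tested in both lines, 4 were higher in both, 2 lower in both and 2 called in opposite directions. Over the 15654 genes tested in both lines these shares were 23.0%, 21.9% and 4.99%. The test of the difference between the lines' responses called 5 of the 10 genes, all lower in H1703 minus H1299, where 34.9% of 19105 genes were called, 13.7% higher and 21.2% lower. IGFBP5 and H19 passed the filter on low counts in H1299 only through the SAHA libraries, so they had to differ there. Both are among the 6 called higher in H1299 and enter its median, which is therefore partly set by the filter. In H1703, H19 passed only through the DMSO libraries and IGFBP5 only through the SAHA libraries, so the direction of both was likewise set by the filter. For H19, among the 5 called for the difference between lines, the direction of that difference was therefore set by the filter too.

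**Figure D1:**
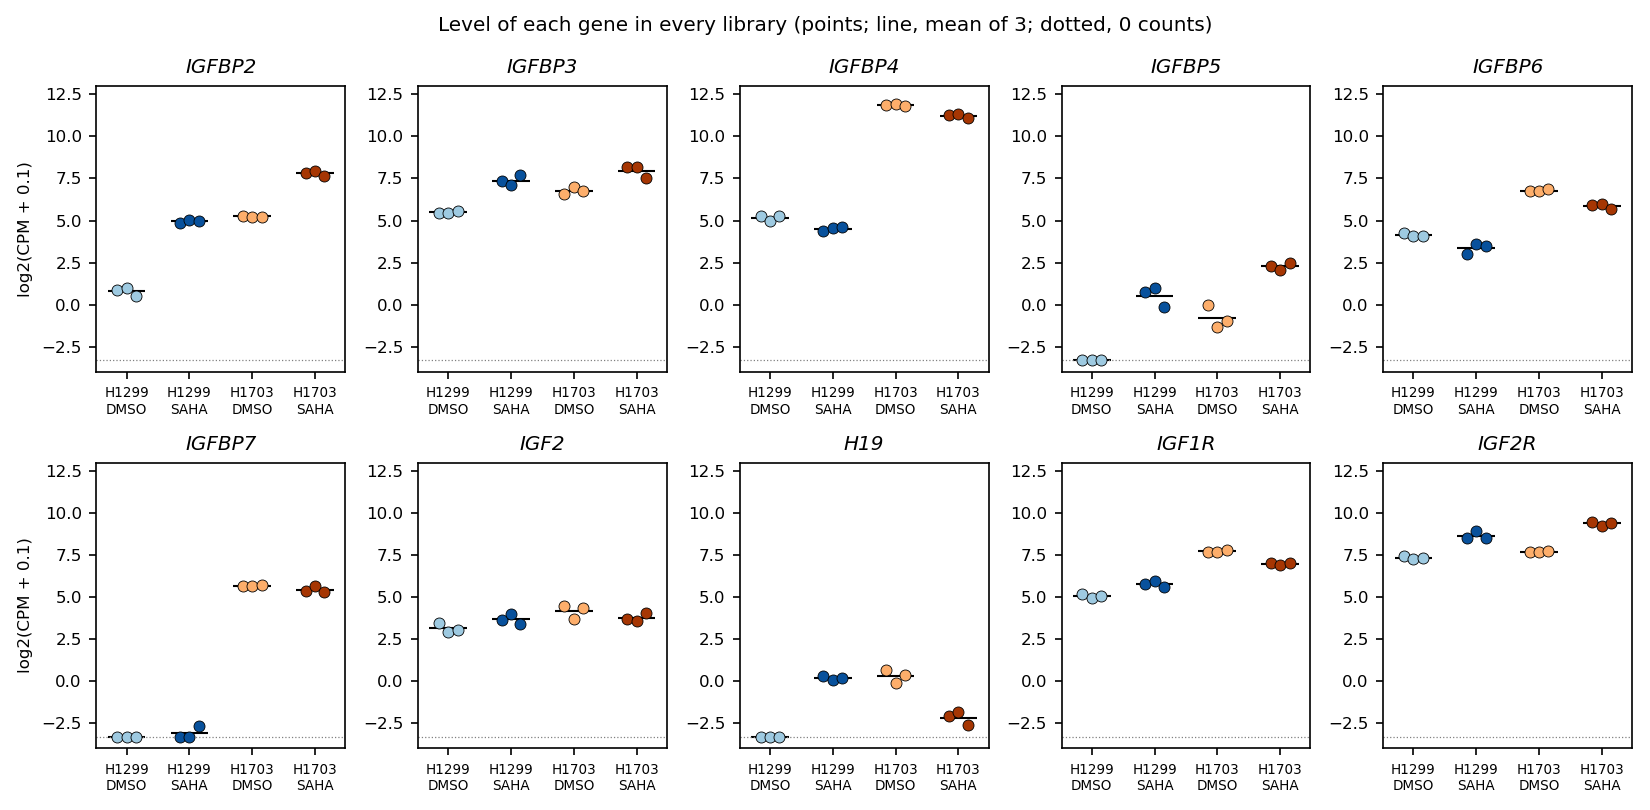
Level of each of the 10 genes in each of the 12 libraries, as log2 of CPM plus 0.1 on one shared vertical scale, by line and treatment. Points are libraries, short lines are means of 3, and the dotted line is 0 counts. IGFBP2 stands lowest in H1299 with DMSO and highest in H1703 with SAHA, IGFBP7 is at or beside 0 counts in all H1299 libraries, and H19 moves in opposite directions in the 2 lines.

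IGFBP2, a binding protein often secreted by carcinomas, had the largest fold change of the members with counts in all 12 libraries. In H1299 its counts were 29, 32 and 23 with DMSO and 491, 521 and 529 with SAHA. In H1703 they were 602, 640 and 547 with DMSO and 3451, 4220 and 3021 with SAHA. All SAHA libraries lay above all DMSO libraries in each line, and the SAHA level of H1299 came near the untreated level of H1703. The mean level went from 1.65 ± 0.309 CPM (SD, n = 3) to 31.1 ± 1.88 in H1299, an 18.1-fold rise (log2 4.18 ± 0.16, SE; adjusted p = 1.6e-07). In H1703 it went from 37.8 ± 0.566 to 225 ± 23.8 CPM, a 6.01-fold rise (log2 2.59 ± 0.09, adjusted p = 2.9e-08). The test of the difference between lines, H1703 minus H1299, gave -1.67 ± 0.17 on the log2 scale (adjusted p = 4.3e-06). In bulk RNA, fewer cells that express a gene and less RNA per cell cannot be told apart, here and for every gene below.

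IGFBP3, the main carrier of circulating IGFs, rose in both lines with some spread between replicates. Its levels in H1299 were 44.2, 44.3 and 48.1 CPM with DMSO and 161, 138 and 205 CPM with SAHA. The H1703 levels were 94.7, 130 and 108 CPM with DMSO and 290, 291 and 182 CPM with SAHA. The groups did not overlap in either line, with SAHA replicate 3 highest in H1299 and lowest in H1703. The gene rose 3.56-fold in H1299 (log2 1.83 ± 0.14, adjusted p = 6.4e-06) and 2.32-fold in H1703 (log2 1.21 ± 0.21, adjusted p = 0.0026). The difference between these responses, -0.69 ± 0.27 on the log2 scale, did not pass (adjusted p = 0.072), which does not show that they are alike. It passed only without SAHA replicate 2 of H1299 (log2 -0.81, adjusted p = 0.043).

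IGFBP5, a binding protein that attaches to extracellular matrix, is the genomic neighbour of IGFBP2. In GRCh38 as the tables give it, IGFBP2 spans chr2:216632828-216664436 on the plus strand and IGFBP5 chr2:216672105-216695525 on the minus strand, so their 3′ ends face each other 7.67 kb apart. IGFBP5 had 0 counts in all 3 H1299 libraries with DMSO and 26, 29 and 14 with SAHA. In H1703 it had 14, 5 and 6 counts with DMSO and 71, 69 and 84 with SAHA. The groups did not overlap in either line, but every count was small beside those of IGFBP2. Against a floor of 3 counts over the group's 3 libraries together, IGFBP5 was at least 23.7-fold higher with SAHA in H1299 (adjusted p = 0.00037), reaching 1.405 ± 0.527 CPM. In H1703 it rose 8.96-fold, from 0.533 ± 0.318 to 4.75 ± 0.756 CPM (log2 3.16 ± 0.35, adjusted p = 3.5e-05). The fitted difference between lines (log2 -4.37 ± 1.32, adjusted p = 0.023) rests on the prior count added to the empty libraries, so its size has no direct reading, and without DMSO replicate 3 of H1299 it no longer passed (log2 -4.36, adjusted p = 0.052).

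IGFBP4, a binding protein known mostly as an inhibitor of IGF action, and IGFBP6, which prefers IGF2 to IGF1, fell in both lines. IGFBP4 counts were 641, 536 and 666 with DMSO and 349, 366 and 417 with SAHA in H1299. In H1703 they were 58366, 66997 and 52285 with DMSO and 36488, 44779 and 32637 with SAHA. After scaling, every SAHA library lay below every DMSO library of its line. The level went from 36.0 ± 3.81 to 22.8 ± 1.82 CPM in H1299 (log2 -0.71 ± 0.12, adjusted p = 0.00058) and from 3743 ± 157 to 2393 ± 231 CPM in H1703 (log2 -0.63 ± 0.08, adjusted p = 0.0001). The difference between these falls was 0.01 ± 0.14 on the log2 scale (adjusted p = 0.98).

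IGFBP6 levels in H1299 were 19.3, 16.8 and 16.6 CPM with DMSO and 8.07, 11.9 and 11.1 CPM with SAHA. The H1703 levels were 108, 106 and 115 CPM with DMSO and 61.4, 62.8 and 50.3 CPM with SAHA. The groups did not overlap in either line. IGFBP6 fell by 0.82 ± 0.16 on the log2 scale in H1299 (adjusted p = 0.0017) and by 0.90 ± 0.10 in H1703 (adjusted p = 2.9e-05). The difference between the falls, -0.15 ± 0.19, did not pass (adjusted p = 0.58).

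The 250 bases before the start of 2 genes that rose and 2 that fell in both lines are shown so that the sequences can be compared. They are RefSeq windows on GRCh38.p14, written 5′ to 3′ on the gene's own strand: chr2:216633170-216633419 (plus) for IGFBP2, chr7:45921273-45921522 (minus) for IGFBP3, chr17:40443200-40443449 (plus) for IGFBP4 and chr12:53097417-53097666 (plus) for IGFBP6. For IGFBP2, which has several RefSeq starts, the window is the one that ends at the start of the Ensembl canonical transcript. Capitals mark matches on either strand to 3 motifs chosen after the results were known. The GC box was searched as GGGCGG. The E-box was searched as the palindrome CACGTG. The TATA box was searched as TATAAA and its reverse complement.
IGFBP2: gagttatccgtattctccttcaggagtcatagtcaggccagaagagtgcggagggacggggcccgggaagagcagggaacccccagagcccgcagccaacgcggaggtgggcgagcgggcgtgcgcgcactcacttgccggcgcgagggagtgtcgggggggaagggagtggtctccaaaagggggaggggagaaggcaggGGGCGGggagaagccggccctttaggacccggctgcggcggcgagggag
IGFBP3: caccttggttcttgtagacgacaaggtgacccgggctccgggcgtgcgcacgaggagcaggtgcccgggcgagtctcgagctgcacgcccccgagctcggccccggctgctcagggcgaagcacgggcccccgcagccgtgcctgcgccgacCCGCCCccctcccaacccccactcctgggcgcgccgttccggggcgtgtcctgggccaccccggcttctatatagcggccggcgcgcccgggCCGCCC
IGFBP4: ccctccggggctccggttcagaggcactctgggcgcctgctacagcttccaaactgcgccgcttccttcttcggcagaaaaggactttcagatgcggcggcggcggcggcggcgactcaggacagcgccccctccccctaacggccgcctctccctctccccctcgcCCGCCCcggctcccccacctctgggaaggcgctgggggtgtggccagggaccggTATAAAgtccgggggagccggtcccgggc
IGFBP6: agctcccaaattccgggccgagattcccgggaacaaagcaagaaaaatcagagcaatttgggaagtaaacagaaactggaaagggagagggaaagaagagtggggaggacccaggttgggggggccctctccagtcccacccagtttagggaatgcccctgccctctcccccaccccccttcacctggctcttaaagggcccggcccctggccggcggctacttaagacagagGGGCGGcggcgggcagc
IGFBP2, IGFBP4 and IGFBP6 each held 1 GC box and IGFBP3 held 2, so this motif was present on both sides of the response. Of 35116 RefSeq windows of the same length, 42.6% held a GC box. IGFBP4 was the only one of the 4 windows with a TATAAA, which 10.7% of all windows held, and none of the 4 held a CACGTG. G and C made up 69.2% of the IGFBP2 window, 76.0% of IGFBP3, 71.6% of IGFBP4 and 61.2% of IGFBP6, against a median of 58.0% over all windows. A match is a run of letters and not a binding site, and its absence says nothing about a factor.

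IGFBP7, a low-affinity relative of the binding proteins, was close to absent from one line. Its counts in H1299 were 0 throughout the DMSO libraries and 0, 0 and 1 in the SAHA libraries, so it was not tested there, and 0 of the group's counts allows up to 3 counts over its 3 libraries. In H1703 it had 49.9, 50.3 and 52.5 CPM with DMSO and 40.7, 49.4 and 39.8 CPM with SAHA. The H1703 SAHA libraries lay below the DMSO libraries, with SAHA replicate 2 just under them. The change of -0.22 ± 0.10 on the log2 scale did not pass (adjusted p = 0.086). It passed without that library (log2 -0.32, adjusted p = 0.011). The 3′ end of IGFBP7 overlaps that of POLR2B, an RNA polymerase II subunit gene on the other strand, which had 7544 to 8382 counts per group of 3 libraries, and whether the authors' counting kept the strands apart is unknown.

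Summed per kb of canonical transcript, which puts genes of different length on one scale, the 6 binding-protein genes stood at 53.5 ± 2.89 CPM per kb in H1299 with DMSO and 108 ± 13.5 with SAHA. In H1703 the sum was 1918 ± 71.1 CPM per kb with DMSO and 1434 ± 154 with SAHA. The groups did not overlap in either line, and the sum lay higher with SAHA in H1299 and lower in H1703. IGFBP4 set the H1703 direction: without it the sum was 37.2 ± 1.29 and 97.6 ± 12.9 CPM per kb in H1299, and 221 ± 7.36 and 349 ± 49.9 in H1703. These sums were not tested.

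The makeup of that sum changed with treatment. In H1299 with DMSO it was shared by IGFBP6 (34.7%), IGFBP3 (32.6%) and IGFBP4 (30.5%), with IGFBP2 at 2.19%. With SAHA, IGFBP3 made up 59.3% and IGFBP2 20.6%, and IGFBP6 and IGFBP4 were at 10.2% and 9.64%. In H1703 IGFBP4 made up 88.5% with DMSO and 75.7% with SAHA, while the IGFBP2 share was 1.395% and 11.1%. Per kb of canonical transcript, IGFBP4 was thus the dominant binding-protein transcript of H1703 under both treatments and of H1299 under neither. For H1299 with DMSO this depends on the length used per gene. By the deposited FPKM values, which use other lengths, IGFBP4 stood there at 17.7, above IGFBP6 (6.74) and IGFBP3 (4.79). Ranked by mean CPM among all genes, IGFBP4 stood at place 14 in the DMSO group of H1703 and 28 in its SAHA group, and at 5877 and 7666 in H1299.

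**Figure D2:**
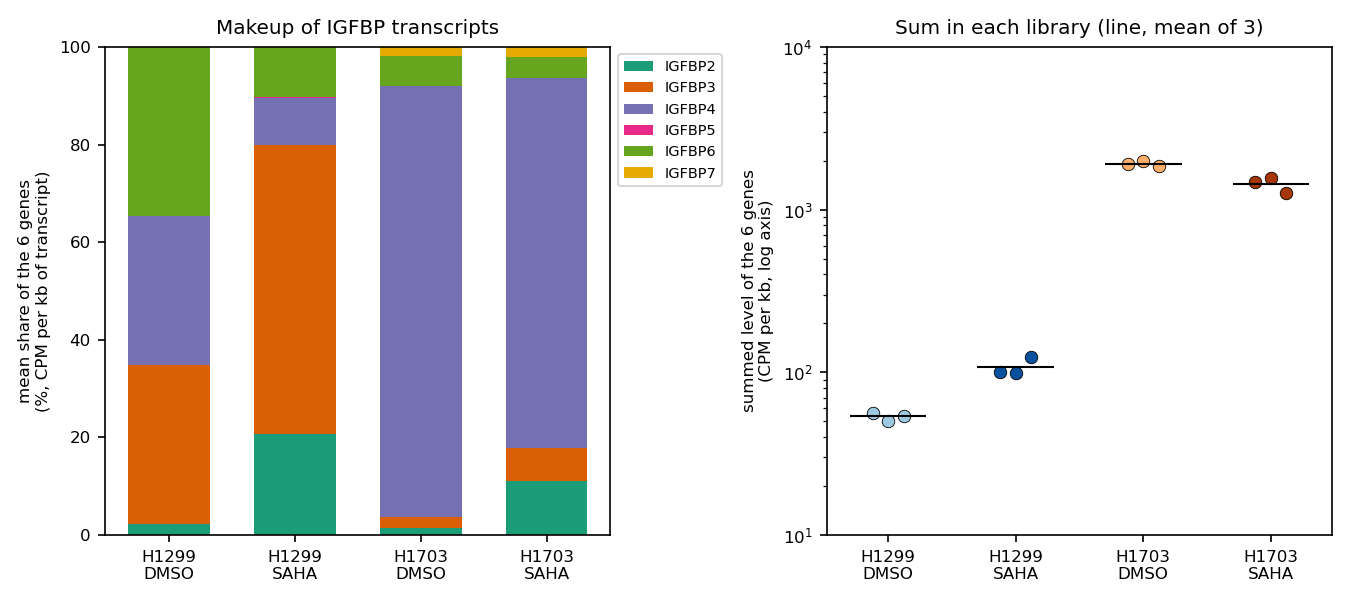
Left, mean share of the summed level of the 6 binding-protein genes that each one makes up, in percent of CPM per kb, by line and treatment. Right, the sum in each library on a log axis, with the mean of 3 as a line. IGFBP4 fills 88.5% of the H1703 bar with DMSO, IGFBP3 and IGFBP2 fill most of the H1299 bar with SAHA, and the sums of the 2 lines lie far apart.

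IGF2, the fetal growth factor gene of the axis, was present at a low level in every library. Its levels in H1299 were 10.9, 7.51 and 8.15 CPM with DMSO and 12.4, 15.9 and 10.6 CPM with SAHA. The H1703 levels were 22.3, 12.7 and 20.5 CPM with DMSO and 12.8, 11.7 and 16.3 CPM with SAHA. The groups overlapped in both lines, with DMSO replicate 1 of H1299 above SAHA replicate 3 and DMSO replicate 2 of H1703 within the SAHA range. The change was 0.49 ± 0.20 on the log2 scale in H1299 (adjusted p = 0.052) and -0.43 ± 0.22 in H1703 (adjusted p = 0.12). Single libraries decided both tests: in H1299 it passed without DMSO replicate 1 (log2 0.65, adjusted p = 0.02) and without SAHA replicate 3 (log2 0.60, adjusted p = 0.034), and in H1703 without DMSO replicate 2 (log2 -0.65, adjusted p = 0.0088). Over the alternatives the adjusted p ran from 0.02 to 0.19 in H1299 and from 0.0088 to 0.32 in H1703.

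The difference of the IGF2 response between lines passed, at -0.99 ± 0.32 on the log2 scale (adjusted p = 0.028). It did not pass without DMSO replicate 2 or 3 or SAHA replicate 2 of H1299, nor without DMSO replicate 1 or 3 or SAHA replicate 1 or 2 of H1703, with adjusted p from 0.062 to 0.075. Overlapping genes added little: INS-IGF2, a read-through of the insulin and IGF2 genes, had at most 3 counts in a group, and the antisense gene IGF2-AS at most 10.

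H19, a spliced and polyadenylated non-coding RNA that also hosts the microRNA gene MIR675, lies at chr11:1995163-2001470 on the minus strand, 127.64 kb from IGF2 at chr11:2129112-2141238 on the same strand. It had 0 counts in all 3 H1299 DMSO libraries and 19, 15 and 18 with SAHA. In H1703 it had 23, 14 and 17 counts with DMSO and 2, 3 and 1 with SAHA. The groups did not overlap, and the SAHA level of H1299 was near the DMSO level of H1703. H19 was at least 17.9-fold higher with SAHA in H1299 (adjusted p = 0.0002), at 1.05 ± 0.0915 CPM. In H1703 it fell by 3.09 ± 0.51 on the log2 scale, from 1.15 ± 0.326 to 0.124 ± 0.0548 CPM (adjusted p = 0.00044). The test of the difference between lines passed (adjusted p = 5.7e-06), with a fitted size, -10.21 ± 0.95 on the log2 scale, that depends on the prior count. In that fit H19 passed the filter on low counts only through the H1299 SAHA and H1703 DMSO libraries. Both lower this difference, so its direction was set by the filter. No library held more than 23 H19 counts, and MIR675 had at most 3 in a group. The canonical H19 transcript is 1106 bases long, and H19 per kb stayed below IGF2 per kb in every group.

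Both genes sit in the imprinted 11p15.5 region with CDKN1C, which encodes the CDK inhibitor p57 and is normally active on the maternal copy. CDKN1C rose in H1299 from 1.36 ± 0.525 to 6.35 ± 0.538 CPM (log2 2.17 ± 0.26, adjusted p = 8.8e-05). In H1703 it fell from 9.40 ± 0.539 to 3.45 ± 1.15 CPM (log2 -1.43 ± 0.22, adjusted p = 0.0003). The test of the difference gave -3.67 ± 0.37 (adjusted p = 3.5e-06). SLC22A18, an imprinted transporter gene beside it, rose by 1.49 ± 0.14 on the log2 scale in H1299, from 8.21 to 23.9 CPM, and fell by 0.56 ± 0.11 in H1703, from 26.6 to 17.8 CPM (difference -2.12 ± 0.18, adjusted p = 6.3e-07).

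Other neighbours named here were not called in opposite directions. NAP1L4, a nucleosome assembly gene, fell in H1299 (log2 -1.02 ± 0.08), and its value in H1703 was -0.45 ± 0.18 (adjusted p = 0.056), which passed with the replicate block (adjusted p = 0.0042), in DESeq2, in a fit over all libraries and without SAHA replicate 2 or 3 of H1703 (adjusted p 0.0089 to 0.048). CD81, a tetraspanin gene, rose in H1703 (log2 0.76 ± 0.09) and was at -0.19 ± 0.11 in H1299 (adjusted p = 0.14), which passed without DMSO replicate 3 of H1299 (log2 -0.32, adjusted p = 0.022). CTSD, a lysosomal protease gene, rose in H1703 (log2 0.61 ± 0.09) and was at 0.24 ± 0.12 in H1299 (adjusted p = 0.091), which passed with upper-quartile scaling, in a fit over all libraries and without SAHA replicate 1 of H1299 (adjusted p 0.019 to 0.05). PHLDA2, an imprinted growth-restricting gene, was called lower in H1299 (log2 -0.32, adjusted p = 0.039), a call lost with the replicate number as a block (adjusted p = 0.058), in DESeq2, with upper-quartile scaling, in a fit over all libraries and without replicate 1 or 2 of either treatment (adjusted p 0.055 to 0.18). In H1703 it also fell (log2 -0.46 ± 0.12, adjusted p = 0.0073). Of 19 genes listed for the region, 9 were tested in H1299 with 2 higher and 2 lower, and 11 in H1703 with 3 higher and 6 lower. Over all genes tested, 33.3% were called higher and 30.4% lower in H1299, and 34.7% and 32.6% in H1703. The median log2 fold change of the listed genes tested was -0.19 and -0.47, beside 0.016 and 0.018 over all genes tested.

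IGF1R, the signalling receptor, moved in opposite directions. Its levels in H1299 were 36.1, 31.0 and 32.8 CPM with DMSO and 53.7, 60.6 and 48.8 CPM with SAHA. The H1703 levels were 205, 208 and 226 CPM with DMSO and 130, 119 and 132 CPM with SAHA. No group overlapped another within a line, and the H1703 libraries stayed above all H1299 libraries under both treatments. IGF1R rose 1.57-fold in H1299 (log2 0.65 ± 0.11, adjusted p = 0.00073) and fell by 0.73 ± 0.08 on the log2 scale in H1703 (adjusted p = 2.6e-05). The responses differed by -1.45 ± 0.13 (adjusted p = 1.4e-06).

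IGF2R, the uptake receptor for IGF2 and for lysosomal enzymes, rose in both lines. Its levels in H1299 were 175, 153 and 159 CPM with DMSO and 362, 483 and 365 CPM with SAHA. In H1703 they were 207, 206 and 209 CPM with DMSO and 709, 605 and 680 CPM with SAHA. All SAHA libraries of either line lay above all DMSO libraries of both. The rise was 2.40-fold in H1299 (log2 1.26 ± 0.12, adjusted p = 2.4e-05) and 3.25-fold in H1703 (log2 1.70 ± 0.08, adjusted p = 1.3e-07). The difference between them, 0.37 ± 0.15, did not pass (adjusted p = 0.077). It passed in DESeq2 (log2 0.43, adjusted p = 0.036), with DESeq2's size factors (adjusted p = 0.041), with mitochondrial genes left out (log2 0.45, adjusted p = 0.032) and without SAHA replicate 2 of H1299 (log2 0.52, adjusted p = 0.0045). A processed pseudogene within IGF2R had 60 and 221 counts over the groups of H1299 and 15 and 104 over those of H1703, whereas IGF2R had at least 2585 counts in each library.

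The balance of the receptors per kb followed from these changes. IGF2R transcripts exceeded those of IGF1R 4.24 ± 0.041 times in H1299 with DMSO and 6.44 ± 0.539 times with SAHA. In H1703 the ratio was 0.847 ± 0.038 with DMSO and 4.55 ± 0.177 with SAHA. Only the untreated H1703 libraries held more IGF1R than IGF2R per kb. That order depends on the length used per gene, as the deposited FPKM values put IGF1R at 8.19 and IGF2R at 12.4 in H1703 with DMSO.

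The 250 bases before the receptors' starts are shown because IGF1R and IGF2R share a GC-rich start and differ in response. They are chr15:98648289-98648538 for IGF1R and chr6:159968832-159969081 for IGF2R, both on the plus strand of GRCh38.p14 (RefSeq), with the same 3 motifs in capitals, where overlapping matches run together.
IGF1R: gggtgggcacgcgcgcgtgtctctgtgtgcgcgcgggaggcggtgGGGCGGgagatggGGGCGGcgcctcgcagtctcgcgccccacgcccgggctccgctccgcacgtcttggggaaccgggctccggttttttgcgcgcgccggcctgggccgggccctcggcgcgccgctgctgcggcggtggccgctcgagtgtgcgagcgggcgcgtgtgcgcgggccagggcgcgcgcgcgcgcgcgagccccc
IGF2R: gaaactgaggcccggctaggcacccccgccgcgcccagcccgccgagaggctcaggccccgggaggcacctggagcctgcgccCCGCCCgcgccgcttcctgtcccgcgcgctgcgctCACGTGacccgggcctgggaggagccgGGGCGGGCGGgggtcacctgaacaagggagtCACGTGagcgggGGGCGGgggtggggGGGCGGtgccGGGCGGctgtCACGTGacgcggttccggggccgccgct
G and C made up 81.2% of the IGF1R window and 79.2% of the IGF2R window. IGF1R held 2 GC boxes and no CACGTG. IGF2R held 6 GC boxes and 3 copies of CACGTG, the palindrome read by MYC, USF and MiT/TFE family factors. Of all 35116 windows 6.34% held CACGTG at least once, and 28 windows (0.0797%) held it 3 or more times. As before, letters in a window are not evidence of binding.

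**Figure D3:**
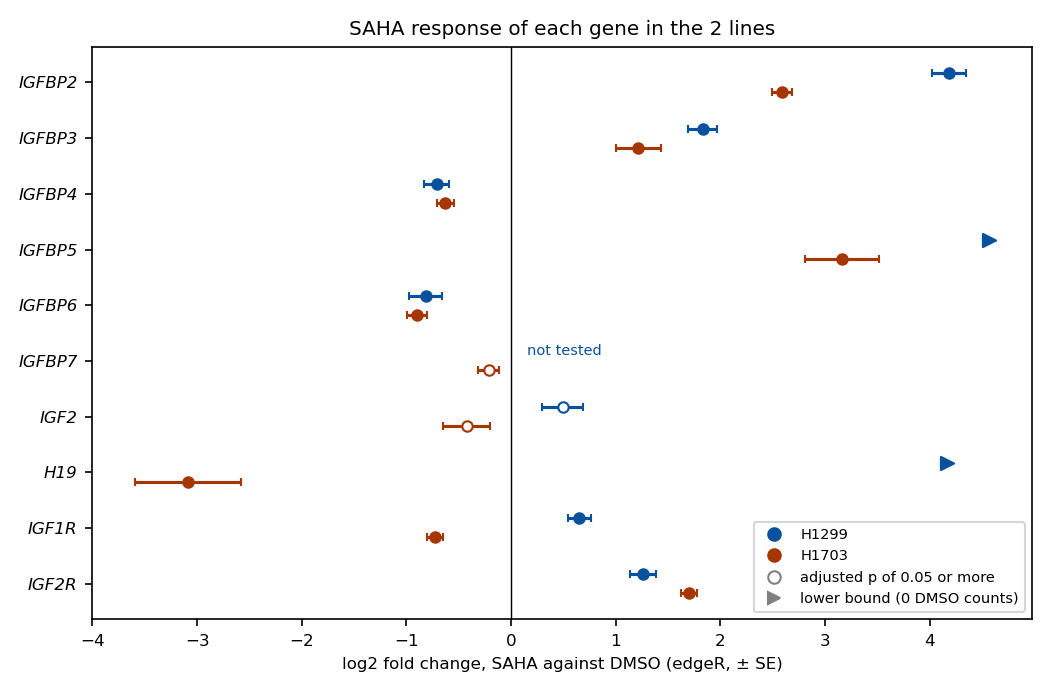
Log2 fold change of SAHA against DMSO in H1299 (blue) and H1703 (red) for each gene, with bars of 1 SE from the edgeR fits of 3 against 3 libraries. Open circles did not pass an adjusted p of 0.05, and triangles are lower bounds where the DMSO libraries had 0 counts. IGFBP2, IGFBP3, IGFBP5 and IGF2R lie right of 0 in both lines, IGFBP4 and IGFBP6 left of 0 in both, and H19 and IGF1R on opposite sides.

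The next question was how the untreated lines differ. All 10 genes were called higher in H1703 with DMSO than in H1299 with DMSO, in a fit over all libraries in which 66.5% of 19105 genes were called, 34.3% higher and 32.2% lower. No DMSO library of H1703 overlapped one of H1299 for any of them, a state that 37.1% of all genes showed in this direction and 35.8% in the other. The median log2 difference of the 10 was 3.60, against 0.002 over all genes. The calls and the median include H19 and IGFBP7, at 0 in the H1299 DMSO libraries, which could be tested only through counts in other groups. They also include IGFBP5, which passed the filter only through the SAHA libraries. The median is therefore partly set by the filter.

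IGFBP4 differed most among the members with counts in all DMSO libraries, 104-fold (log2 6.70 ± 0.12, adjusted p = 3.5e-14). IGFBP2 was 22.9-fold higher (log2 4.52 ± 0.13, adjusted p = 1.8e-12). IGF1R was 6.40-fold (log2 2.68 ± 0.10) and IGFBP6 6.23-fold (log2 2.64 ± 0.14) higher in H1703. IGFBP3, IGF2 and IGF2R lay closer between the lines. IGFBP3 was 2.44-fold (log2 1.28 ± 0.20, adjusted p = 0.00012) and IGF2 2.08-fold (log2 1.06 ± 0.23, adjusted p = 0.001) higher. IGF2R differed least, 1.28-fold (log2 0.35 ± 0.11, adjusted p = 0.0098), and did not pass with upper-quartile scaling (log2 0.24, adjusted p = 0.074). Against the floor of 3 counts, IGFBP7 was at least 867-fold, H19 at least 19.4-fold and IGFBP5 at least 9.0-fold higher in H1703.

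Within H1299 with DMSO the order per kb began with IGFBP6, IGFBP3 and IGFBP4 at 18.6, 17.4 and 16.3 CPM per kb, whose libraries overlapped, followed by IGF2R (11.5), IGF1R (2.72), IGF2 (1.59) and IGFBP2 (1.17). With SAHA it ran from IGFBP3 (64.4) through IGF2R (28.7), IGFBP2 (22.0), the overlapping pair IGFBP6 (10.96) and IGFBP4 (10.4), IGF1R (4.44) and IGF2 (2.32) to H19 (0.947) and IGFBP5 (0.225). IGFBP2 thus went from the lowest of the detected members to a place above IGFBP6, IGFBP4 and IGF1R. In H1703 with DMSO the order was IGFBP4 (1698), IGFBP6 (116), the overlapping pair IGFBP3 (42.5) and IGFBP7 (35.7), IGFBP2 (26.7), IGF1R (17.4), IGF2R (14.7), IGF2 (3.31), H19 (1.04) and IGFBP5 (0.0854). With SAHA it was IGFBP4 (1085), IGFBP2 (159), IGFBP3 (97.4), IGFBP6 (61.4), IGF2R (47.3), IGFBP7 (30.3), IGF1R (10.4), IGF2 (2.44), IGFBP5 (0.762) and H19 (0.113), with no overlap between neighbours. Each of these orders rests on 1 transcript length per gene.

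The other genes of the pathway were read from lists by role, whose counts stand beside 33.3% of all genes called higher and 30.4% lower in H1299, and 34.7% and 32.6% in H1703. Of 9 other ligands, receptors and carriers, 4 were tested in H1299 (2 higher, 1 lower) and 5 in H1703 (2 higher, 1 lower). IGF1 and INS, the remaining ligand genes, had too few counts to test in either line. LRP1, a large endocytic receptor that also binds IGFBP3, rose from 35.4 to 196 CPM in H1299 (log2 2.41 ± 0.18, adjusted p = 1.4e-05) and from 155 to 629 CPM in H1703 (log2 2.04 ± 0.09, adjusted p = 1.2e-07). IGFBP1, the liver's insulin-regulated binding protein, fell in H1703 from 17.1 to 0.736 CPM (log2 -4.48 ± 0.34, adjusted p = 7.7e-06) and stood at 0.119 and 0.106 CPM in H1299. It passed the filter on low counts only through the H1703 DMSO libraries, so the direction of its call was set by the filter. INSR, the insulin receptor gene, was called higher in H1299 (log2 0.48, adjusted p = 0.037), and the call was lost with the replicate number as a block (adjusted p = 0.05), in DESeq2 and without any 1 of the DMSO libraries or SAHA replicate 2 or 3 (adjusted p 0.052 to 0.13). Its value in H1703 was -0.19 ± 0.15 (adjusted p = 0.28). IGFBPL1, a binding-protein-like gene, was called lower in H1299 (log2 -0.32, adjusted p = 0.035), a call lost in 9 alternatives, among them the block (adjusted p = 0.068), and rose in H1703 (log2 0.74 ± 0.17, adjusted p = 0.0039).

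Proteases that cut binding proteins, and their inhibitors, made up a list of 11. In H1299, 9 were tested, with 5 higher and 1 lower, and in H1703, 10 were tested, with 6 higher and 4 lower, where 63.8% and 67.4% of all genes were called in either direction. PAPPA, a metalloprotease whose main substrate is IGFBP4, had 249, 245 and 265 CPM in the H1703 DMSO libraries and 31.5, 26.0 and 28.1 CPM with SAHA. The groups were far apart, and PAPPA fell with IGFBP4 in this line (log2 -3.13 ± 0.09, adjusted p = 1.2e-08). Its response differed between lines by -4.59 ± 0.32 (adjusted p = 1.5e-07). In H1299 PAPPA was low and called higher, from 0.725 ± 0.341 CPM with DMSO to 1.97 ± 0.560 with SAHA (log2 1.38 ± 0.39, adjusted p = 0.012), and it did not pass without SAHA replicate 1 of H1299 (adjusted p = 0.054). With DMSO replicate 2 at 0.355 CPM, its H1299 DMSO libraries alone would not pass the filter on low counts, whereas its SAHA libraries would. The filter thus favoured a rise of PAPPA in H1299, where it is among the 5 called higher. STC1, which encodes an inhibitor of PAPPA, had 17.1, 18.1 and 17.8 CPM in H1703 with DMSO and 447, 425 and 497 CPM with SAHA (log2 4.71 ± 0.09, adjusted p = 3.5e-09). It rose less in H1299, from 46.2 to 149 CPM (log2 1.64 ± 0.11), and the difference passed (3.0 ± 0.14, adjusted p = 5.5e-09).

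HTRA1, a secreted serine protease gene, rose in H1299 from 25.5 to 66.7 CPM (log2 1.33 ± 0.09) and also rose in H1703 (log2 1.03 ± 0.08). ADAM9, ADAM12 and ADAM28 are genes of membrane metalloproteases. ADAM9 fell in H1299 (log2 -1.21 ± 0.11) and in H1703 (log2 -0.74 ± 0.08). ADAM12 rose in H1299 (log2 1.32 ± 0.27, adjusted p = 0.0021) and fell in H1703 (log2 -1.39 ± 0.11, adjusted p = 3.9e-06), and the test of the difference gave -2.78 ± 0.25 (adjusted p = 1.1e-06). ADAM28 rose in H1703 (log2 3.67 ± 0.25) and was too low to test in H1299, at 0.159 and 0.615 CPM. The list's median log2 fold change was 0.92 in H1299 and 0.54 in H1703, against 0.016 and 0.018 over all genes tested.

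**Figure D4:**
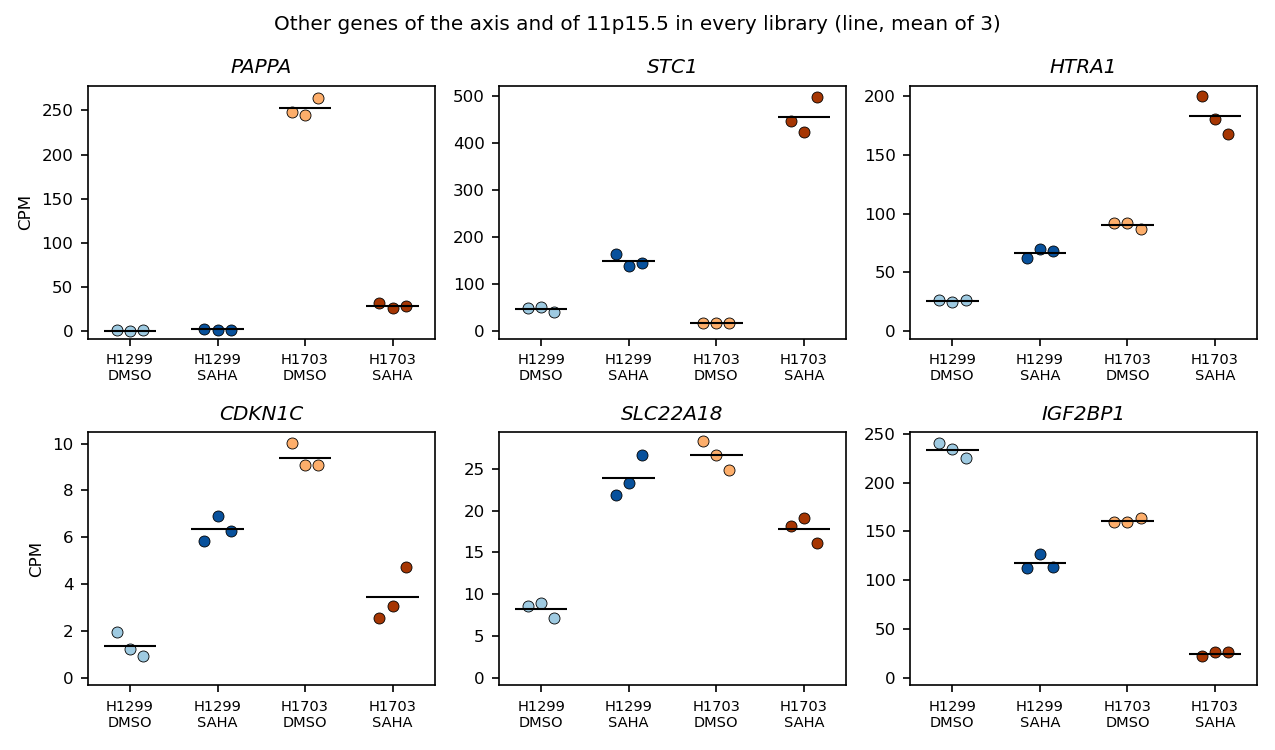
Levels in CPM in each library for 6 genes outside the main set, with the mean of 3 as a line and a separate linear axis per gene. PAPPA is high only in H1703 with DMSO, STC1 and HTRA1 rise with SAHA in both lines, CDKN1C and SLC22A18 are higher with SAHA in H1299 and lower in H1703, and IGF2BP1 falls in both.

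Of 23 adaptors and kinases below the receptors, 22 were tested in H1299 (9 higher, 7 lower) and 23 in H1703 (8 higher, 7 lower), with medians of 0.064 and 0.036, near those of all genes. IRS1, the main docking protein of IGF1R and the insulin receptor, rose in H1299 from 42.8 to 161 CPM (log2 1.86 ± 0.10, adjusted p = 8e-07) and was at 208 and 189 CPM in H1703 (adjusted p = 0.19). The responses differed by -2.05 ± 0.12 (adjusted p = 3.3e-08), the same direction of difference as for IGF1R. FOXO1, a transcription factor held back by AKT, rose in both lines (log2 1.53 ± 0.14 in H1299 and 1.76 ± 0.16 in H1703). The adaptor gene SHC1 also rose in both (log2 0.52 ± 0.08 and 1.20 ± 0.06). The kinase genes PIK3CA (log2 -1.20 ± 0.15 in H1299 and -0.70 ± 0.13 in H1703) and AKT2 (log2 -0.74 ± 0.09 and -0.49 ± 0.08) fell in both lines. TSC2, whose product inhibits mTOR, fell in both as well (log2 -0.42 ± 0.10 and -0.56 ± 0.08).

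Of the 3 genes for IGF2 mRNA-binding proteins, which bind and stabilise IGF2 and other transcripts, none was called higher. IGF2BP1 fell from 234 to 118 CPM in H1299 (log2 -1.04 ± 0.08, adjusted p = 6.2e-06) and from 161 to 24.7 CPM in H1703 (log2 -2.69 ± 0.09, adjusted p = 2.4e-08), a larger fall in H1703 (difference -1.72 ± 0.12, adjusted p = 1.2e-07). IGF2BP3 fell in H1299 (log2 -0.91 ± 0.10, adjusted p = 5e-05) and was at 52.2 and 42.8 CPM in H1703 (log2 -0.27, adjusted p = 0.066), where it passed with the replicate block (adjusted p = 0.045), without the filter, in a fit over all libraries and without DMSO replicate 1 or SAHA replicate 3 of H1703 (adjusted p 0.017 to 0.036). IGF2BP2 passed in neither line (adjusted p = 0.3 and 0.066), although its SAHA libraries lay above its DMSO libraries in both. Its mean went from 141 to 156 CPM in H1299 and from 29.4 to 33.9 CPM in H1703.

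Between the untreated lines, 34.3% of all genes were called higher in H1703 and 32.2% lower. Of the proteases and their inhibitors all 11 were tested between the DMSO groups, with 9 higher and 1 lower in H1703, and of the other ligands, receptors and carriers 5 were tested, with 3 higher and 1 lower. PAPPA was higher in H1703 by 8.43 ± 0.23 on the log2 scale (adjusted p = 1.2e-12) and ADAM12 by 4.62 ± 0.18, while STC1 was lower in H1703 (log2 -1.39 ± 0.10). IGFBP1, LRP1 and INSR were higher there (log2 7.10 ± 0.61, 2.13 ± 0.15 and 1.48 ± 0.17) and IGFBPL1 was lower (log2 -1.76 ± 0.14). For IGFBP1 this direction was set by the filter, which it passed only through the H1703 DMSO libraries. IGF2BP1 and IGF2BP2 were lower in H1703 (log2 -0.54 ± 0.08 and -2.26 ± 0.08).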

How the data were processed

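The authors deposited 1 table per line with raw whole-number counts per gene and FPKM values for each library, per the file headers. Its control columns are headed NC and were matched to the labelled controls by line and number. Per the submitters' processing notes the build was GRCh38 and the tools included HISAT2 2.1.0 and StringTie 1.3.3b, beside edgeR 3.30.3, fastp and FastQC 0.11.9, with no role given. One passage of the labels names a directional kit and another an unstranded library. The deposited FPKM values equalled the count over column total and 1 length per gene (within 1% in 100.0% of 304680 values). They served only for that check and to show where an order depends on length, since the lengths they imply differ from those of the canonical transcripts.

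The tests used edgeR 4.0.16 (R 4.3.3). Genes passed filterByExpr at a minimum count of 10 and a total of 15, libraries were scaled by TMM, and the quasi-likelihood fit was robust. P-values were adjusted by Benjamini-Hochberg over every tested gene, and a call needed an adjusted p below 0.05. Each line was fitted alone. The difference of the responses (H1703 minus H1299) and the DMSO comparison came from 1 fit over 12 libraries. SE is the log2 fold change over the root of F. CPM used TMM over 12 libraries, and levels per kb the Ensembl canonical transcript of GENCODE 44. Where a DMSO group had 0 counts, folds were set against 3 counts over the group. At 14416126 to 19408852 counts a library 1 count is worth under 0.1 CPM, and folds from few counts carry counting error beside replicate spread. The scripts were tested on simulated data.

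The members, lists, tests and alternatives were chosen with earlier results of these data known. Named genes are the members and, per list and SAHA comparison, the called genes lowest in adjusted p, up to 2 each way, provided their log2 CPM averaged at least 1. The DMSO comparison named genes of 3 lists likewise. Such a gene's value in the other line is given beside it where it was tested. A gene that this rule names is not reported here. Alternatives were DESeq2 1.42.0, its size factors, upper-quartile scaling, no filter, no mitochondrial genes, 1 fit over all libraries, a replicate block, and leaving out each library. A label tag ties replicate numbers to a batch, so the numbers pair libraries; deviations of same-numbered DMSO and SAHA libraries correlated at -0.031 to 0.033 over 19105 genes. Chi-square over degrees of freedom for pairs of replicates was 9.96 to 22.3, so no pair was a repeat of 1 library. Promoters were available for 8 of the 10 genes, and IGF2 and IGFBP7 had no entry.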

Additional observations from a re-analysis of the deposited data

Results flagged for a closer look

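The SAHA response differed between the lines, by the edgeR test of the difference itself, for 5 of the 10 genes, all of them lower in H1703 minus H1299, where 21.2% of all genes were called in that direction. The difference was -1.67 on the log2 scale for IGFBP2, which rose in both lines and more in H1299. For IGF1R it was -1.45, with a rise in H1299 and a fall in H1703. For IGF2 it was -0.99, although neither line's own change passed. For IGFBP5 it was -4.37 and for H19 -10.21, sizes that depend on the prior count because the DMSO libraries of H1299 had 0 counts of both. For H19 the direction of the difference was also set by the filter on low counts.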

How the results depend on the processing

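For the 10 genes the number called was within 1.5 times the main count under every alternative in H1299, in H1703 and between the DMSO groups. For the difference of responses between lines, 5 genes called became 3 without DMSO replicate 3 of H1299 (3 lower), and the 0 called higher became 1 in DESeq2, with its size factors, with mitochondrial genes left out and without SAHA replicate 2 of H1299, each time IGF2R. Leaving out 1 library at a time gave 8 to 9 members called in H1299 (6 to 7 higher, 2 lower) among 10346 to 10894 genes, 8 to 9 in H1703 (4 higher, 4 to 5 lower) among 11004 to 11664, 10 between the DMSO groups (10 higher, 0 lower) among 12023 to 12915, and 3 to 6 for the difference (0 to 1 higher, 3 to 5 lower) among 5934 to 6635. The IGFBP4 difference, 0.01, ran from -0.054 to 0.099 and changed sign without DMSO replicate 1 (-0.04) or 3 (-0.019) or SAHA replicate 1 (-0.048) of H1299, and without DMSO replicate 3 (-0.016) or SAHA replicate 1 (-0.0029) or 2 (-0.054) of H1703, never past the threshold. IGF2 in H1299 also passed in DESeq2 (adjusted p = 0.046), with its size factors (0.046), with upper-quartile scaling (0.022) and without the filter (0.039). The PLAGL1 value in H1299, 0.0047, was -0.0027 without the filter, and without DMSO replicate 2 (-0.08) or 3 (-0.12) or SAHA replicate 1 (-0.0095) or 3 (-0.025) it was also below 0, in a range of -0.12 to 0.16. That of PEG10 in H1703, 0.57, became -0.57 without SAHA replicate 1 and 0.92 without SAHA replicate 2. The replicate block gave 8, 8, 10 and 5 members called in the 4 comparisons and changed no member's call. Upper-quartile scaling moved the median of all genes in H1299 by 0.124, and no other scaling or filter moved it by over 0.1. The cause of these changes was not tested. Low counts limit H19 and IGFBP5: a group at 0 counts allows up to 3.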

Other observations

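Imprinted genes outside 11p15.5 gave values of their own. Of 13 listed, 7 were tested in H1299, with 5 higher and 0 lower, where 33.3% and 30.4% of all genes were called, and 8 in H1703, with 2 higher and 5 lower, where 34.7% and 32.6% were. The 5 called higher in H1299 include NDN and MAGEL2, at 0.447 and 0.216 CPM with DMSO. These passed the filter on low counts only through the SAHA libraries, so they had to be higher. PEG10, a retrotransposon-derived gene, rose in H1299 from 151 to 487 CPM (log2 1.63 ± 0.16, edgeR adjusted p = 4.7e-05), and was at 113 ± 6.85 CPM with DMSO and 165 ± 156 with SAHA in H1703 (log2 0.57 ± 0.73, adjusted p = 0.53). That value turned on SAHA replicate 1 of H1703, without which PEG10 was lower there (log2 -0.57, adjusted p = 0.00089). PEG3, a zinc-finger gene, rose in H1299 from 5.14 to 17.9 CPM (log2 1.74 ± 0.21, adjusted p = 8.9e-05) and was at 0 counts in H1703 with DMSO. In H1703 the zinc-finger gene PLAGL1 fell from 16.5 to 5.17 CPM (log2 -1.65 ± 0.16, adjusted p = 1.1e-05) and DIRAS3, a small GTPase gene, from 10.8 to 2.98 CPM (log2 -1.83 ± 0.18, adjusted p = 1.4e-05). In H1299, PLAGL1 was at 15.2 and 15.8 CPM (adjusted p = 0.98), and DIRAS3 was too low to test, at 0.217 and 0.280 CPM. The non-coding RNA gene MEG3 rose in H1703 from 15.4 to 35.8 CPM (log2 1.23 ± 0.19, adjusted p = 0.00042), and SNRPN rose in H1703 from 107 to 138 CPM (log2 0.39 ± 0.09, adjusted p = 0.0039). MEG3 and SNRPN were too low to test in H1299, with SNRPN at 0 counts under DMSO. GRB10, an imprinted adaptor gene that binds IGF1R, was at 0 counts in H1299 with DMSO and at 99.1 CPM in H1703 with DMSO.

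Over the 12 libraries the level of IGFBP3 was most like those of N6AMT1 (Pearson r = 0.981) and VWA1 (0.979), and that of IGF2 most like those of ELOVL7 (0.916) and SMARCA2 (0.867). These are descriptions over libraries that share lines, treatment and scaling. H19 was too low for this search.

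The length that the deposited FPKM values imply for H19 is 15011 bases, 13.6 times its canonical transcript of 1106 bases and longer than its 6308-base span in the same table. For IGFBP2 the implied length is 5.18 times, for IGFBP3 3.94 times and for IGFBP6 2.985 times the canonical one, whereas for IGFBP4 it is 0.998 times. For IGF1R it is 2.01 times and for IGF2R 1.13 times. Ranking by the deposited FPKM would therefore place H19, IGFBP2, IGFBP3 and IGFBP6 lower against IGFBP4 than the per-kb levels given here. It would likewise place IGF1R lower against IGF2R.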
